A study of Mus musculus with 6 samples.

Results

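The insulin-like growth factor (IGF) genes described here are the ligand genes Igf1 and Igf2, the receptor gene Igf2r, and the binding protein genes Igfbp2, Igfbp3, Igfbp4, Igfbp5, Igfbp6 and Igfbp7. They were chosen by name, and all probes that the platform annotation assigns to them were taken, 20 of the 45281 probes on the array and 9 of the 19057 genes it names. They were measured in total RNA of 6 stable clones of NIH3T3, an established fibroblast line from NIH Swiss mouse embryos. Of these, 3 lines (called FEAT 3, FEAT 15 and FEAT 20 below) carried pEF-DEST51-FEAT, in which the elongation factor 1alpha promoter drives human FEAT, a protein also known as the methyltransferase METTL13. They were selected with blasticidin S at 10 µg/ml for 7 days and picked for their amount of FEAT protein. The 3 lines called control 1, control 2 and control 3 carried pEF-DEST51-∆ccdB, the same vector without FEAT and without its ccdB gene, and the sources used here do not say how they were selected. Each clone is a single picked line on 1 array, so the spread within a group is the spread between such lines. The level of the human insert was not assessed, since the array was designed for mouse transcripts.

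IGF-I and IGF-II are secreted growth factors that act on the IGF-I receptor, a tyrosine kinase that drives growth and survival through the PI3K and MAP kinase pathways. The receptor encoded by Igf2r, which is also the cation-independent mannose 6-phosphate receptor, takes IGF-II to lysosomes for degradation and sorts newly made lysosomal enzymes. IGF binding proteins hold the ligands in the extracellular fluid, and proteases release them. Fibroblasts respond to IGF-I and secrete several of the binding proteins, and IGF-I receptors are needed for the transformation of mouse fibroblasts by many oncogenes.

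Precision is limited by the number of arrays, 1 per clone. Mean array intensity was 616 to 735, and 37.8% to 42.4% of probes exceeded the background limit of the array. That limit was the most common log2 intensity plus 3 SDs of the values below it, which corresponds to intensities of 91.9 to 98.9. Of 10 fibroblast markers, 9 were above it on all 6 arrays, including Col1a1, Vim and Pdgfra, while Postn was above it on none. The hepatocyte genes Alb, Ttr and Apoa1, the adipocyte genes Adipoq, Fabp4 and Plin1, the immune markers Ptprc and Adgre1 and the endothelial markers Pecam1, Cdh5 and Tie1 were above it on none. Krt14 and Cdh1, listed as epithelial markers, Cd14 from the immune list and Des from the muscle list were above it on all 6, while Epcam, Krt8 and Krt18 of the epithelial list and Myod1 and Ckm of the muscle list were above it on none. Serpina1a of the hepatocyte list, Kdr of the endothelial list and Myog of the muscle list were above it on some arrays but not on all 6. The summed intensity of the fibroblast markers was 39606 to 42612 in control clones and 43388 to 53209 in FEAT clones, with no marker called. That of the epithelial list was 15643 to 25669 in control clones and 19955 to 25829 in FEAT clones, with no marker called either. The part of these sums in the results below was not tested.

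Of the 9 members, 4 were read above background in every clone: Igf2r, Igfbp4, Igfbp6 and Igfbp7. The 100 bases before the RefSeq transcription start of these 4 genes are shown, since theirs are the transcripts that the clones contained at a measurable level. The start sites that the clones used were not measured. The stretches lie on GRCm38.p6, at chr17:12769707-12769806, minus strand, for Igf2r, at chr11:99041144-99041243, plus strand, for Igfbp4, at chr15:102144086-102144185, plus strand, for Igfbp6 and at chr5:77408046-77408145, minus strand, for Igfbp7. Capitals mark matches on either strand to TATAAA (the core of a TATA box), GGGCGG (a GC box, CCGCCC on the other strand) and CACGTG (an E-box).
Igf2r: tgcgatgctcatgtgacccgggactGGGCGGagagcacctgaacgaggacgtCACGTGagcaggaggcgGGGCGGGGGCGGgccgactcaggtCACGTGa
Igfbp4: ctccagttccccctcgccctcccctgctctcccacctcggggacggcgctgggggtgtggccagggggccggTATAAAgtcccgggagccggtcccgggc
Igfbp6: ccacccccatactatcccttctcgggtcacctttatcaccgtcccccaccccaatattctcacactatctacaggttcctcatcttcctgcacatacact
Igfbp7: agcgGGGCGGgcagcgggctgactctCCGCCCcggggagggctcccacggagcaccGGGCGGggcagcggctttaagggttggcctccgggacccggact
Over the 300 bases from 250 before to 50 after the start, Igf2r held 3 GC boxes and 2 E-boxes, and Igfbp7 held 4 GC boxes. The Igfbp4 promoter held 1 TATAAA, whose first base lies 28 bases before the start. Igfbp6 had 1 match on the opposite strand, 148 bases before the start and outside the stretch shown. Of 32851 RefSeq promoters of that length, 13.6% held TATAAA, 35.7% GGGCGG and 7.15% CACGTG. The same 300 bases held 34 CpG dinucleotides in Igf2r, 27 in Igfbp4, 33 in Igfbp7 and 8 in Igfbp6, where the median over all promoters was 7. Of the 5 members without a probe above background on all arrays, Igf1 had 6 CpGs and Igfbp5 had 10, while Igfbp3 had 37, so the CpG counts of both sets overlapped. All 9 members had an entry in the promoter table, with 13 start sites in all. A match is a description of the letters only.

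The ligand genes gave no signal above background in any clone. The brighter Igf1 probe read 86.9, 85.2 and 80.3 in control 1, control 2 and control 3, and 87.6, 93.0 and 94.5 in FEAT 3, FEAT 15 and FEAT 20. The other Igf1 probe lay between 81.8 and 91.4. The FEAT clones lay above the control clones on the first of these probes, but none of the 6 readings passed the background limit, so no fold is given. Igf2, the fetal growth factor gene that is expressed from the paternal allele, read 80.3, 84.1 and 72.1 in control clones and 90.8, 74.5 and 70.1 in FEAT clones on its 1 probe, with overlapping groups. Igf2 has 4 RefSeq start sites in the promoter table, and the transcripts that its probe reads are not known here.

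Igf2r, the receptor that clears IGF-II, was above background on both probes in all 6 clones. The brighter probe read 335, 178 and 349 in control 1, control 2 and control 3, and 285, 449 and 390 in FEAT 3, FEAT 15 and FEAT 20. Control 2 was the lowest clone and FEAT 15 the highest, and FEAT 3 lay among the control clones, as did FEAT 20 after normalization, so the groups overlapped. In RNA of a whole culture, less transcript per cell and fewer expressing cells cannot be told apart. The second probe placed control 2 lowest and FEAT 15 highest too, at 164 and 362, with 275 and 272 in control 1 and control 3 and 227 and 302 in FEAT 3 and FEAT 20. On normalized values the FEAT clones differed by 0.45 on the log2 scale (SE 0.26, 95% interval -0.12 to 1.01) on the brighter probe and by 0.37 (SE 0.22, interval -0.13 to 0.86) on the other. Neither passed limma's test (adjusted p = 0.652 and 0.676), and the intervals reach from a slightly lower level to a 2.01-fold and a 1.81-fold higher one. The difference rested on control 2, since without it the values were 0.09 on both probes. Control clones spanned 1.18 and 0.91 on the log2 scale on the 2 probes. Of the 15830 probes above background on all arrays, 1.01% and 2.86% spanned as much or more among control clones.

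Igfbp4 encodes a binding protein that restrains IGF action and is cut by the protease pappalysin. Its brighter probe read 1891, 1789 and 1492 in control 1, control 2 and control 3, and 906, 3411 and 1614 in FEAT 3, FEAT 15 and FEAT 20. The second probe read 1523, 1343 and 1155 in control clones and 600, 2534 and 1071 in FEAT clones. On both probes FEAT 3 was the lowest of the 6 clones and FEAT 15 the highest, with the control clones close together between them. Normalized values spanned 1.23-fold and 1.20-fold among control clones, and 3.19-fold and 3.60-fold among FEAT clones. Such a span among FEAT clones, or a wider one, was seen for 0.392% and 0.291% of the 15830 probes above background on all arrays, where the median span was 0.28 on the log2 scale. The span among control clones was near its median, with 53.7% and 59.8% of probes at least as wide. The mean difference between groups was -0.06 (SE 0.32, 95% interval -0.78 to 0.65, adjusted p = 0.975) and -0.25 (SE 0.35, interval -1.03 to 0.53, adjusted p = 0.879), so neither a fall nor a rise was detectable. Its sign depended on which FEAT clone was included: without FEAT 3 the differences were 0.30 and 0.14, and without FEAT 15 they were -0.54 and -0.78, none of them called. Whether the spread belongs to FEAT or to the picking of single lines cannot be told apart with 3 clones a group.

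**Figure D1:**
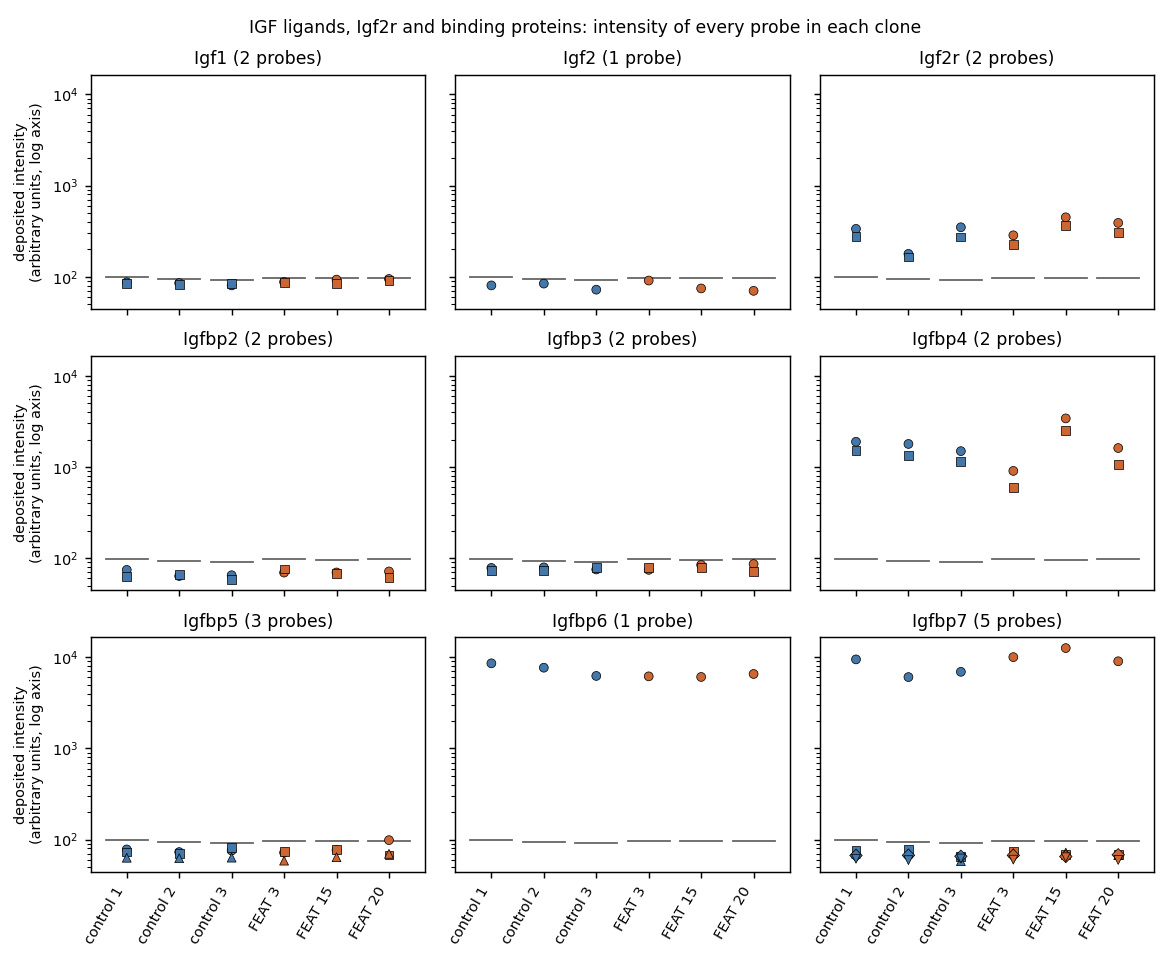
Deposited intensity (log axis, arbitrary units) of every probe of the 9 genes in each clone, with control clones in blue, FEAT clones in orange, a marker shape per probe within a gene and grey bars at the background limit of each array. Igf2r, Igfbp4, Igfbp6 and 1 of 5 Igfbp7 probes lie above the limit in all 6 clones, and the FEAT clones spread from 906 to 3411 on the brighter Igfbp4 probe.

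Igfbp6, a binding protein with a preference for IGF-II, was read by 1 probe. It gave 8577, 7678 and 6238 in control 1, control 2 and control 3, and 6172, 6080 and 6556 in FEAT 3, FEAT 15 and FEAT 20. Control 1 and control 2 were highest, while control 3 lay within the range of the FEAT clones. The difference was -0.27 (SE 0.14, 95% interval -0.59 to 0.05), which did not pass (adjusted p = 0.614). The FEAT clones lay close together, and their span of 1.22-fold on normalized values was near that of the control clones, at 1.24-fold.

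Igfbp7 encodes a secreted protein of the family that binds IGFs weakly and also binds other partners, and it is known as a factor in senescence and tumour suppression. Its bright probe read 9472, 6059 and 6920 in control 1, control 2 and control 3, and 10029, 12602 and 9032 in FEAT 3, FEAT 15 and FEAT 20. FEAT 3 and FEAT 15 exceeded all control clones, and FEAT 20 lay just below control 1. Of the 10 tested probes of these genes, this one had the smallest unadjusted p. The difference was 0.48 (1.40-fold, SE 0.18, 95% interval 0.09 to 0.87, unadjusted p = 0.0203), and it did not pass after adjustment (adjusted p = 0.425). An unadjusted p under 0.05 was reached by 9.08% of all tested probes and by 1 of the 10 tested probes of these genes. The other 4 Igfbp7 probes read between 58.1 and 78.0 and were not above background on any array, although the annotation assigns all 5 to the same gene. The transcripts that each probe reads are not known here.

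Igfbp2, Igfbp3 and Igfbp5, which in other tissues are abundant carriers, gave no usable signal. The 2 Igfbp2 probes read 58.8 to 76.2, and the 2 Igfbp3 probes 72.0 to 86.2, with no array above the background limit. Igfbp5, a binding protein that adheres to matrix, read 58.8 to 82.3 on 5 arrays and on 2 of its 3 probes on the sixth. Its remaining reading was 98.8 in FEAT 20, just above that array's limit of 97.2, against 72.1 and 76.8 in FEAT 3 and FEAT 15 and 73.0 to 78.1 in control clones. With that 1 reading excepted, these 3 genes were not above the background limit, and no fold is given for them.

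**Figure D2:**
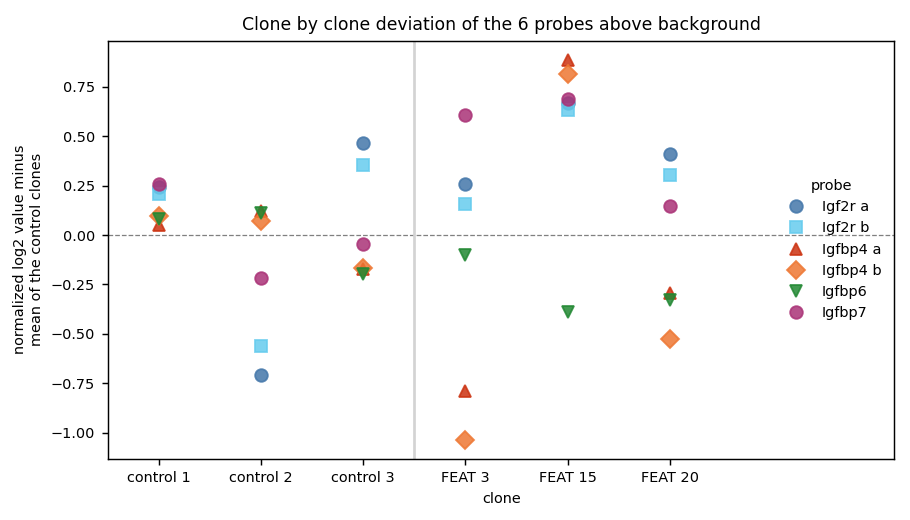
Normalized log2 value of each probe above background minus its mean over the control clones (vertical axis), by clone (horizontal axis), with a and b for the brighter and dimmer probe of a gene. Both Igfbp4 probes are lowest in FEAT 3 and highest in FEAT 15, and both Igf2r probes are lowest in control 2.

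Over the members, 10 of 20 probes, from 7 of the 9 genes, passed the filter on low values and were tested. None was called in FEAT clones by limma at an adjusted p under 0.05, against 0.184% of all 27169 tested probes (0.118% higher and 0.0663% lower). A share of that size gives no call among 10 probes either. Of the 6 probes above background on all arrays, 0 had clones of one group that all lay above the other on normalized values, against 16.4% of all such probes. Of the tested probes, 1 had no overlap, the brighter Igf1 probe, which was below background throughout, and 14.1% of all tested probes had none.

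**Figure D3:**
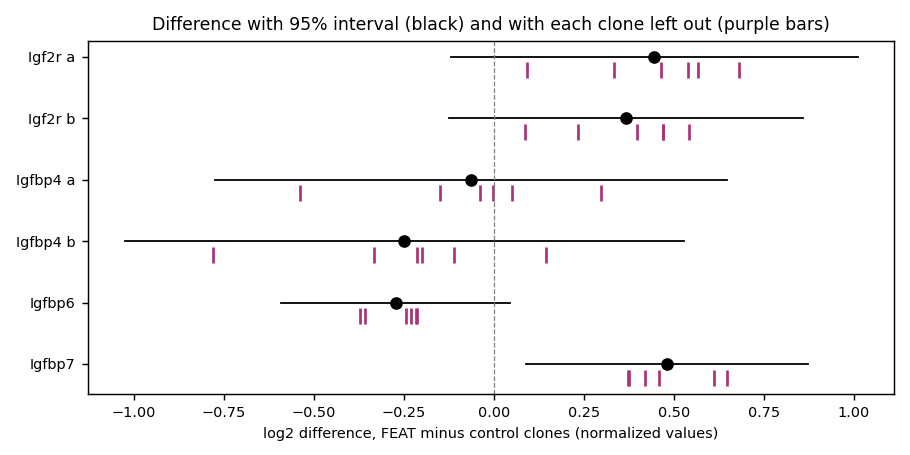
Log2 difference, FEAT minus control, on normalized values for the 6 probes above background (black points, n = 3 clones each) with 95% intervals (black lines), and the difference with each clone left out in turn (purple bars). The Igfbp7 interval, 0.09 to 0.87, is the only one of the 6 that does not include 0, before adjustment over all probes, and the Igfbp4 bars fall on both sides of 0.

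The genes around the members were taken from 6 lists of receptors, adaptors, IGFBP regulators, related ligands, kinases, sorting proteins and imprinted partners. Of 82 listed genes, 72 had a named probe and 62 were tested. None passed limma's test on its brightest probe (lowest adjusted p = 0.111), where 0.225% of all 13315 tested genes did, and 12 of the 62 had an unadjusted p under 0.05, against 10.1% of all tested genes. The clones of the groups did not overlap in 13 of the 62 (21.0%), 6 higher and 7 lower, against 15.2% of all tested genes. Overlap here and in the lists below was judged on normalized values, and deposited readings can overlap where these do not. The median difference over the 62 was 0.04, and 0.01 over all genes.

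The transcript of the signalling receptor was read above background in all 6 clones. Igf1r read 1249, 1077 and 1055 in control 1, control 2 and control 3 and 1099, 1402 and 1376 in FEAT 3, FEAT 15 and FEAT 20 on its brightest probe. The normalized difference was 0.14 (SE 0.12, 95% interval -0.13 to 0.41, adjusted p = 0.787), and a second probe gave 0.30 (interval -0.02 to 0.63, adjusted p = 0.580). The FEAT clones lay above the control clones on both of these probes after normalization, while both intervals included 0. A dimmer probe gave 0.08. The insulin receptor gene Insr, whose product can pair with the IGF-I receptor, differed by 0.08 (adjusted p = 0.908), and by -0.09 and -0.27 on dim probes that were not above background in any FEAT clone.

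Receptors and adaptors had no called gene among 12 tested and a median difference of 0.16, with 3 genes without overlap higher and 1 lower (background 7.95% and 7.24% of genes). Irs2, a docking protein that carries signals from both receptors, read 316, 308 and 431 in control clones and 555, 550 and 853 in FEAT clones. Its difference was 0.91 (SE 0.20, 95% interval 0.46 to 1.36, adjusted p = 0.151). Every FEAT clone lay above every control clone, with FEAT 20 the highest. Grb14 and Grb10 encode related adaptors that bind the activated receptors and dampen them. Grb14 read 1561, 1140 and 1500 in control clones and 863, 902 and 563 in FEAT clones, a difference of -0.96 (SE 0.23, adjusted p = 0.176), and -0.85 on a second probe (adjusted p = 0.207). Grb10 read 6563, 10646 and 6407 in control clones and 10100, 14189 and 13965 in FEAT clones, a difference of 0.72 (SE 0.21, adjusted p = 0.267), and 0.59 on a second probe (adjusted p = 0.262). The 2 adaptors thus differed in opposite directions on 2 probes each, and none of these values passed. Control 2 held the highest Grb10 reading of its group, and without it the Grb10 difference was 0.99 and was called (adjusted p = 0.0195). That was the 1 call of Grb10 among 13 alternative analyses. Without control 1 the Grb10 difference was 0.56 (adjusted p = 0.643). Irs1, the other main docking protein, was above background on 1 of 6 arrays.

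Other binding proteins and regulators had no called gene among 10 tested and a median difference of 0.07. In 2 genes (20%, against 15.2% of all tested genes) the groups did not overlap, both higher in FEAT clones. Adam12, a metalloprotease that can cut Igfbp3 and Igfbp5, read 81.6, 78.0 and 81.7 in control clones, where it was not above background, and 134, 129 and 104 in FEAT clones, where it was. Only a bound on the means follows: after background correction and normalization, the mean of the FEAT clones was at least 1.45-fold higher. It carries no sampling error, and the probe did not pass limma's test (adjusted p = 0.111). FEAT 20, at 5.85 on the log2 scale, lay just above the limits of the control arrays, 5.78 to 5.80. The bound sets the mean of the FEAT clones against the background limit, or the probe's own value where higher, on normalized values. Its size depends on the background correction, which draws dim probes apart. Without that correction the difference between groups was 0.58 on the log2 scale, against 0.98 with it. The other Adam12 probe did not exceed background in any clone. Crim1, a membrane protein with an IGFBP-like domain, differed by 0.57 (SE 0.15, adjusted p = 0.238) and by 0.24 on a second probe, with the remaining probe below background.

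Pappa encodes pappalysin, the protease that cuts Igfbp4. It read 122, 107 and 114 in control 1, control 2 and control 3, and 184, 196 and 97.2 in FEAT 3, FEAT 15 and FEAT 20. FEAT 3 and FEAT 15 lay above all control clones and FEAT 20 was not above background, so the groups overlapped (difference 0.53, SE 0.34, adjusted p = 0.686). These same clones stood at opposite ends for Igfbp4. Without FEAT 20 the Pappa difference was 1.05 (adjusted p = 0.0242). That of Adam12, which was not above background in control clones, was then 1.22 (adjusted p = 0.0179). Each of these genes was called in only 1 of 13 alternative analyses. Pappa differed by 0.22 without FEAT 3 and by 0.31 without FEAT 15 (adjusted p = 0.925 and 0.876). For Adam12 the adjusted p was 0.437 without control 1. Stc2, a secreted inhibitor of pappalysin, read 221 to 448 in control clones and 264 to 314 in FEAT clones, a difference of -0.03, and its relative Stc1 was not above background.

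The PI3K, AKT and mTOR chain had no called gene among 18 tested and a median difference of -0.05, with 7 positive and 11 negative. The groups did not overlap for 2 of the 18 (11.1%, against 15.2% of all tested genes). Both were lower: Akt1, at -0.40 (SE 0.15, adjusted p = 0.429), and Rheb, at -0.13 (adjusted p = 0.807). Akt1 was above background on 2 of 3 control arrays and on none of the FEAT arrays, so its difference rests on readings near the limit. Without background correction it was -0.24 (adjusted p = 0.476). The transcription factor gene Foxo1, whose product is held out of the nucleus by AKT, differed by 0.34 (SE 0.14, adjusted p = 0.509), and the mTOR partner gene Rptor by 0.23 (adjusted p = 0.706). Other tested probes of Rptor were dimmer and differed by 0.21, -0.11 and 0.08.

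Genes that work with Igf2r in mannose 6-phosphate sorting had no called gene among 12 tested and a median difference of -0.15. The groups did not overlap for 4 of the 12 (33.3%, against 15.2% of all tested genes). All 4 were lower, where 7.24% of all genes had no overlap in that direction. They were Rab9, Gga2, Vps26a and Gnptg. Before normalization the readings of Gga2 and Gnptg overlapped between groups. Rab9, a small GTPase that returns the receptor from late endosomes to the Golgi, read 626, 419 and 474 in control clones and 214, 394 and 265 in FEAT clones. The difference was -0.98 (SE 0.20, 95% interval -1.43 to -0.54, adjusted p = 0.122), and a second probe gave -1.07 (SE 0.21, adjusted p = 0.104). On both probes all FEAT clones lay below all control clones, with FEAT 15 nearest to them. Without FEAT 15 the brighter probe was called (-1.22, adjusted p = 0.0446). That was its 1 call among 13 alternative analyses, and without control 1 the probe gave -0.86 (adjusted p = 0.454). Gga2, an adaptor that packages the receptor at the Golgi, differed by -0.37 (adjusted p = 0.449), with -0.44 and -0.36 on other probes. Vps26a, a retromer subunit that retrieves the receptor from endosomes, differed by -0.35 (adjusted p = 0.452), but its other probe gave 0.05. Gnptg, a subunit of the enzyme that makes the mannose 6-phosphate tag, differed by -0.28 (adjusted p = 0.572). M6pr, the second mannose 6-phosphate receptor, differed by 0.07 (adjusted p = 0.908).

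The list of the Igf2 locus, imprinted partners and IGF2 mRNA binding proteins had no called gene among 6 tested. The groups did not overlap for 1 gene (16.7%, against 15.2% of all tested genes). It was Igf2bp3, an oncofetal protein that binds Igf2 mRNA, at 0.40 (SE 0.14, adjusted p = 0.412), with 0.20, 0.01, 0.06 and 0.24 on its other probes. Peg3, a paternally expressed gene, differed by -0.16 (adjusted p = 0.884) and by -0.44 on a second probe (adjusted p = 0.486). Hmga2, a chromatin protein that raises Igf2bp2 transcription, was above background on 3 of 6 arrays and differed by -0.32 (adjusted p = 0.767). Dlk1, a further paternally expressed gene, read 23524 to 27139 in control clones and 24136 to 28755 in FEAT clones, so it was bright where Igf2 was not above background.

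Insulin and relaxin ligands, relatives of the IGFs, had no called gene and none without overlap among 4 tested. Insl6 read from 426 to 701 in control clones and from 295 to 960 in FEAT clones, with FEAT 20 the highest and FEAT 3 the lowest of all 6 (difference -0.36, adjusted p = 0.800). Rln3 and Insl3 differed by 0.16 and 0.09 (adjusted p = 0.849 and 0.908).

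**Figure D4:**
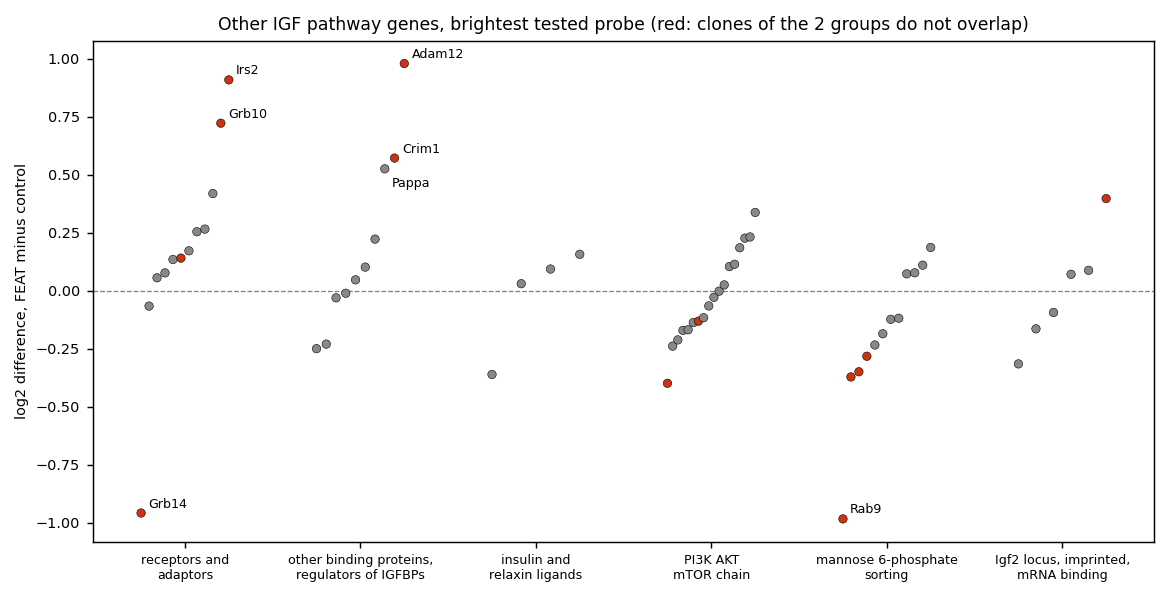
Log2 difference, FEAT minus control (vertical axis), of each tested pathway gene on its brightest probe, by list (horizontal axis, ordered by size within a list), with genes of at least 0.5 in size named. Red points are genes whose clones do not overlap between groups on normalized values. Irs2, Grb10 and Adam12 lie highest and Grb14 and Rab9 lowest, none of them past the adjusted threshold.

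The genes most similar to each member over the 6 clones were found by Pearson correlation of normalized log2 values among 13308 other tested genes. For Igf2r they were Ptpdc1 (r = 0.998), Itga3 (r = 0.990) and Xpo1 (r = 0.988), the last of which was above background on 1 array. Itga3, the integrin alpha3 gene, read 453, 202 and 576 in control 1, control 2 and control 3 and 379, 665 and 566 in FEAT 3, FEAT 15 and FEAT 20, with the same low clone as Igf2r. For Igfbp7 they were Sephs2 (r = 0.993), Fstl1 (r = 0.986), a secreted glycoprotein of the follistatin family, and Per2 (r = 0.984), a circadian clock gene. Fstl1 read 4484, 3375 and 3619 in control clones and 4396, 5736 and 4419 in FEAT clones. For Igfbp6 they were Idh3b (r = 0.987) and Ndufa12 (r = 0.987), both genes of mitochondrial metabolism, and Vps36 (r = 0.977). For Igfbp4 they were Olfr55 (r = 0.998) and Zfp839 (r = 0.986), neither above background on any array, and Coro2b (r = 0.985), which read 98.1 to 112 in control clones and 91.4, 135 and 103 in FEAT 3, FEAT 15 and FEAT 20. The points share their array, and 117 genes for Igf2r, 106 for Igfbp7, 92 for Igfbp6 and 47 for Igfbp4 exceeded r = 0.9, so these names are a description of 6 arrays.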

How the data were processed

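One Illumina bead array per clone was read, 6 in all. The authors' deposited values were linear probe intensities, 45281 per array. Per the submitters' processing notes, the scans went through BeadStudio. The sources used here name no version, setting, slide or scan batch. No detection p was in the tables used. The lowest value per array lay between 50.1 and 53.1, so the values were taken as not background-subtracted. The sources used here do not state this. The series' own value table, also deposited, was the same intensities times 1 factor per array (0.925 to 1.10).

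With R 4.3.3 and limma 3.58.1, intensities were background-corrected (normexp fitted to the signals, offset 16), quantile normalized and put on the log2 scale. Dim probes are drawn apart by this correction. The 60% of probes with the highest mean (27169) were tested, with lmFit and eBayes, two-sided, and Benjamini-Hochberg adjustment over all of them at 0.05. Log2 differences are FEAT minus control. Intervals are 95% intervals from that fit. An exact permutation test of 3 against 3 cannot go below p = 0.1 and was not used. Sample titles gave the group and number of each clone, and the clones are separate stable lines. The 6 arrays shared no values, over 15 pairs. The filter and the limma test were tried on simulated normalized values, while background correction and normalization were not.

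Gene names came from GEO's platform annotation, checked by gene ID against RefSeq of assembly GRCm38.p6 (34885 probes with 1 gene, 18 with several, 10378 unnamed here). For genes that are not members, the brightest probe stood for the gene. All 9 members were described on every probe. Of each pathway list up to 3 genes with the smallest unadjusted p were named, and for each member above background on all arrays, with a span of at least 0.5 on the log2 scale, the 3 genes with the most similar profile. The members and lists were chosen with earlier results of these data known. Genes named for having no overlap between groups (Igf1r, Rheb, Gnptg), and those given for their role (Insr, Irs1, Stc1, Stc2, Igfbp1, Htra3, M6pr, Dlk1), were named after their values were seen. Alternatives were no background correction, an offset of 50, the deposited value table, median scaling, no filter, a filter on background, a trended robust variance, and each clone left out.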

Additional observations from a re-analysis of the deposited data

How the results depend on the processing

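Under 7 settings of background correction, scaling, filter and variance, and with each of the 6 clones left out, limma called 0 of the members' probes. The smallest adjusted p of a member in any of these was 0.235, for an Igfbp4 probe without FEAT 15. In the main analysis 1 of 10 tested member probes had an unadjusted p under 0.05. Over the alternatives that count ran from 0 (without control 2) to 3 (without control 3), and it was 2 without background correction. With a clone left out, the number of all probes called ran from 0 (without control 1) to 157 (without control 2), and pathway genes called ran from 0 to 2 (Grb10 without control 2, Rab9 without FEAT 15, Adam12 and Pappa without FEAT 20). Counting any tested probe of a pathway gene gave 0 calls too. Igf2r, Igfbp6 and Igfbp7 kept their direction in all 13 alternatives, with log2 differences of 0.09 to 0.68 on the brighter Igf2r probe, -0.37 to -0.21 for Igfbp6 and 0.37 to 0.65 for Igfbp7. With a clone left out, the direction changed for both Igfbp4 probes (-0.54 to 0.30 and -0.78 to 0.14), Rln3 (-0.045 to 0.29), Insl3 (-0.0356 to 0.24) and Peg3 (-0.39 to 0.11). Without FEAT 20 the brighter Igfbp4 probe gave 0.05. No paired analysis was possible because the clone numbers 1, 2 and 3 and 3, 15 and 20 share 1 number and name separate lines. No slide was given, so a slide block was not run. Signal over background limits the ligand genes, Igfbp2, Igfbp3 and Igfbp5, for which these arrays give no difference.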

Other observations

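Igfbp2 and Igfbp5 are neighbours on mouse chromosome 1, and none of their 5 probes was above background in any control clone. Igfbp3 lies next to Igfbp1 on chromosome 11, and the 1 Igfbp1 probe, at 62.6 to 77.4, was not above background either. Igfbp4 lies elsewhere on chromosome 11, beside Top2a and Tns4, and was read in every clone. Htra3, a secreted protease with an IGFBP-like domain, read 883, 691 and 806 in control 1, control 2 and control 3 and 540, 1136 and 570 in FEAT 3, FEAT 15 and FEAT 20. FEAT 15 was the highest clone, as for Igfbp4, with FEAT 3 and FEAT 20 below all control clones, and the difference between groups was -0.23 (adjusted p = 0.823). Htra3 was named after its values were seen.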
